A study of Homo sapiens with 6 samples.

Results

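Semaphorin genes were compared between HepG2 cells that had received an H19 siRNA and cells that had received a control siRNA. HepG2 is an established human liver cancer line that retains many hepatocyte functions, and H19 is an imprinted long noncoding RNA. There were 3 libraries of cells transfected with the control siRNA (siCon) and 3 of cells transfected with the H19 siRNA (siH19), all harvested 48 h after transfection and all from the same line, with no other agent named in the labels. The labels do not say how many siRNA sequences were used, and the level of H19 itself was not analysed here. The members are the 7 genes with a semaphorin symbol among the 1998 genes of the authors' deposited table, and their receptors in that table, NRP2 and PLXND1, were added. Because this table lists only genes that passed the authors' test, the members were chosen by the same difference that is described below, so their counts and medians are descriptions without a test.

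Semaphorins are secreted or membrane-bound signalling proteins that share a sema domain. They were first known for steering growing axons and are also active in blood vessels, epithelia and tumours. Class 3 semaphorins are secreted and mostly bind a neuropilin, which passes the signal on through a plexin. Classes 4 and 6 span the membrane and usually bind plexins directly. Activated plexins act on small GTPases and so change the actin cytoskeleton and integrin adhesion.

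Of the 7 listed semaphorin genes, 6 were higher and 1 was lower after the H19 siRNA. Their median log2 fold change was 0.65 in the authors' deposited table. Among all 1998 listed genes 44.7% were higher and 55.3% lower, with a median of -0.27. SEMA3A, SEMA3G and SEMA4F about doubled, SEMA3C, SEMA6A and SEMA3F rose by 1.40-fold to 1.57-fold, and SEMA4G fell by 1.39-fold. The 3 doubled genes were among 35 listed genes with a rise of at least 2-fold, and those 35 are 3.92% of the 893 genes listed as higher. All 3 lay within 1 SE of 2-fold, so this count depends on the cut. The fold less 1 SE was 1.85 for SEMA3A, 1.87 for SEMA3G and 1.85 for SEMA4F. All 4 listed class 3 genes rose, whereas the 3 listed membrane genes were divided, 2 higher and 1 lower. Both receptors in the table, NRP2 and PLXND1, rose as well.

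Sequence upstream of the start site is shown for a secreted and a membrane semaphorin that doubled and for the one that fell. Each window holds the 250 bases before a start in the RefSeq tables, in build GRCh38.p14, which differs from the build named in the submitters' processing notes. Capitals mark the GC box (GGGCGG or its reverse complement CCGCCC) and the CCAAT box (CCAAT or ATTGG). The SEMA3G window is chr3:52445104-52445353 on the minus strand, that of SEMA4F is chr2:74653997-74654246 on the plus strand, and that of SEMA4G is chr10:100969254-100969503 on the plus strand.

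SEMA3G: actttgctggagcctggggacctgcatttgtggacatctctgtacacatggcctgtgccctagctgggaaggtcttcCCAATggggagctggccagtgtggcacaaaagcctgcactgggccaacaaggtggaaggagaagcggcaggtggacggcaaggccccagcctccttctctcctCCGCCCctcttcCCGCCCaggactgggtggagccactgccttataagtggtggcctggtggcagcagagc
SEMA4F: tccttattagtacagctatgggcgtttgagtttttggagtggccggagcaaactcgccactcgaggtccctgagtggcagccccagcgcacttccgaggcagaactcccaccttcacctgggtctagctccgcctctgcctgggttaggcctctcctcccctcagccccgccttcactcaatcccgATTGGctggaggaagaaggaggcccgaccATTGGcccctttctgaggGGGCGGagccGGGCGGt
SEMA4G: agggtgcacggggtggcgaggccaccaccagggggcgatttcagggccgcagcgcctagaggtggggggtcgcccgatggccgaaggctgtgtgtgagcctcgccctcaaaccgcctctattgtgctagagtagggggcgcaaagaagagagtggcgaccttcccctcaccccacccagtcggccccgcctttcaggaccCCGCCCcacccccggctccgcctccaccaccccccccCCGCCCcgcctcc

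Each of the 3 windows shown held 2 GC boxes, but the count varied over the other windows of the members. It was 12, 2 and 0 over the starts of SEMA3F, 3 and 0 over those of SEMA3C, and 0 at the other SEMA4G start. Upstream of NRP2 there were 3 and upstream of PLXND1 9. The CCAAT box occurred at 1 place upstream of SEMA3G, at 2 places upstream of SEMA4F and nowhere in the SEMA4G window shown. It was also missing from the windows of SEMA3C, NRP2 and PLXND1, which rose, so it did not separate rises from the fall. Upstream of a SEMA3F start it occurred at 1 place. Of all 35116 RefSeq windows of this length, 42.6% held a GC box and 32.0% a CCAAT box on either strand. Neither TATAAA (10.7% of all windows) nor CACGTG (6.34%) was found in any window of the members, on either strand. Windows were matched for 7 of the 9 genes, not for SEMA3A and SEMA6A, and SEMA3F, SEMA3C and SEMA4G have more than 1 annotated start. GC content was 62.0% for SEMA3G, 62.4% for SEMA4F and 71.6% for the SEMA4G window shown, beside a median of 58.0% over all windows. At the other SEMA4G start it was 52.4%. Among the other genes that rose, it was 70.0% for NRP2 and 88.8% for PLXND1, and ran from 52.8% to 82.0% over the starts of SEMA3F and from 36.4% to 77.6% over those of SEMA3C. Which start HepG2 uses was not tested, and these matches are letters in a window, not measured binding.

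The library values were combined by the authors into 1 normalised count per group, so spread over libraries is known only through the standard error (SE) that accompanies each fold change, and overlap between single libraries could not be judged. Group counts below were taken back from the authors' log2 values.

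SEMA3A, a secreted protein that makes growth cones collapse and acts through neuropilins and class A plexins, rose about as much as SEMA4F and SEMA3G. Its normalised count was 103 in siCon and 214 in siH19, a log2 fold change of 1.05 ± 0.16 (SE, 3 libraries per group) in the authors' deposited table. Of the 893 genes listed as higher, 25 rose by more. SEMA3G, a secreted member that binds NRP2, had a count of 331 in siCon and 671 in siH19, a log2 fold change of 1.02 ± 0.12 in the authors' deposited table. For both genes the adjusted p was written as 0, which means below the smallest value the table prints above 0, 1e-06. SEMA3G stood 8.50 SEs from no change, the most of the 7.

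SEMA3C and SEMA3F had smaller deposited rises than SEMA3A and SEMA3G, and differences between genes were not tested. SEMA3C, a secreted semaphorin needed in development of the heart outflow tract, had the fewest reads behind it, with counts of 53.8 in siCon and 83.9 in siH19. Its log2 fold change was 0.65 ± 0.19 in the authors' deposited table, with an adjusted p of 0.00809, the nearest of the 7 to the authors' threshold of 0.05. Genes beyond that threshold were not analysed here. SEMA3F, a secreted ligand of NRP2 known for inhibiting vessel growth, went from 340 to 478, with 0.49 ± 0.11 and an adjusted p of 2.92e-04 in the authors' deposited table. The span of 1 SE around the fold ran from 1.38 to 1.79 for SEMA3C and from 1.30 to 1.52 for SEMA3F, and these spans overlap.

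**Figure D1:**
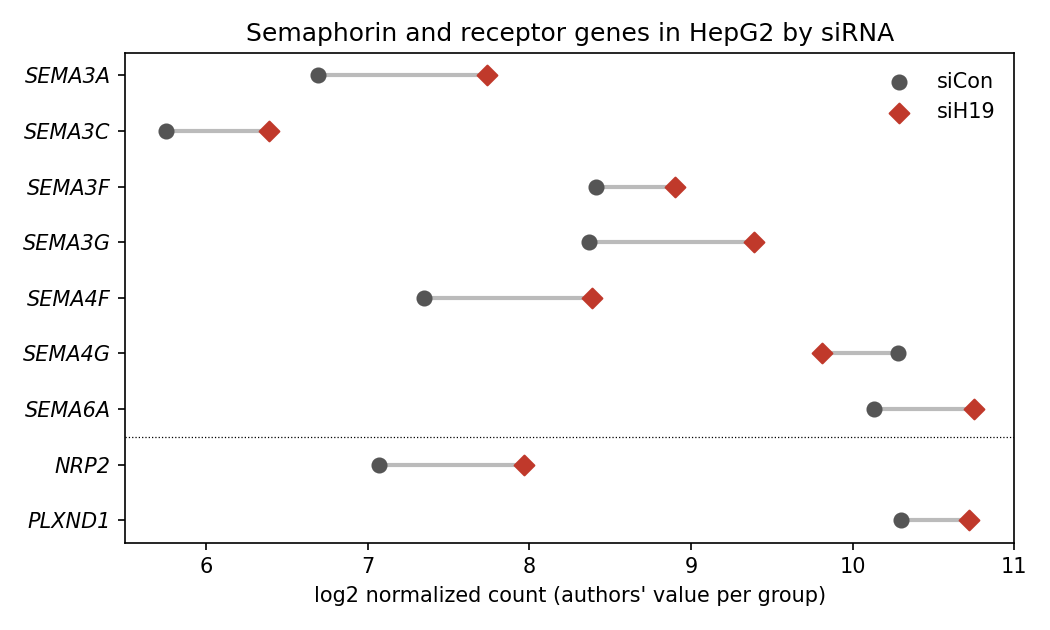
The authors' log2 normalised count in siCon (grey circles) and siH19 (red diamonds) for the 7 listed semaphorin genes and, under the dotted line, 2 receptor genes; each point is 1 value combined over 3 libraries. The siH19 value lies to the right in 8 of the 9 genes and to the left only in SEMA4G.

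The membrane semaphorins did not move together. SEMA4F, a class 4 protein studied at synapses and in Schwann cells, had a count of 163 in siCon and 335 in siH19, and 1.04 ± 0.15 in the authors' deposited table (adjusted p written as 0). SEMA6A, a class 6 protein that binds class A plexins without a neuropilin, rose from a count of 1121 to 1722, by 0.62 ± 0.09 in the authors' deposited table (adjusted p written as 0). SEMA4G, the other class 4 gene, was at 1243 in siCon and 898 in siH19, a log2 fold change of -0.47 ± 0.12 with an adjusted p of 9.70e-04 in the authors' deposited table. SEMA4G thus moved against SEMA6A and also against SEMA4F of its own class. Among the 1105 genes listed as lower, 484 fell by more than SEMA4G.

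Set side by side, the class 3 genes ran from 0.49 to 1.05 and the membrane genes from -0.47 to 1.04 in the authors' deposited table, with medians of 0.83 and 0.62. The ranges overlap, and with 4 and 3 genes selected on this contrast no test of a difference between secreted and membrane classes was made. The listed class 3 genes had mean counts of 68.9 to 499 and the membrane genes 249 to 1422. The smallest listed change was 0.46 on the log2 scale among genes with a mean count under 100 and 0.19 among those of at least 1000, so a gene as low as SEMA3C had to change more to appear. The deposited SEs of the semaphorins ran from 0.09 to 0.19.

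**Figure D2:**
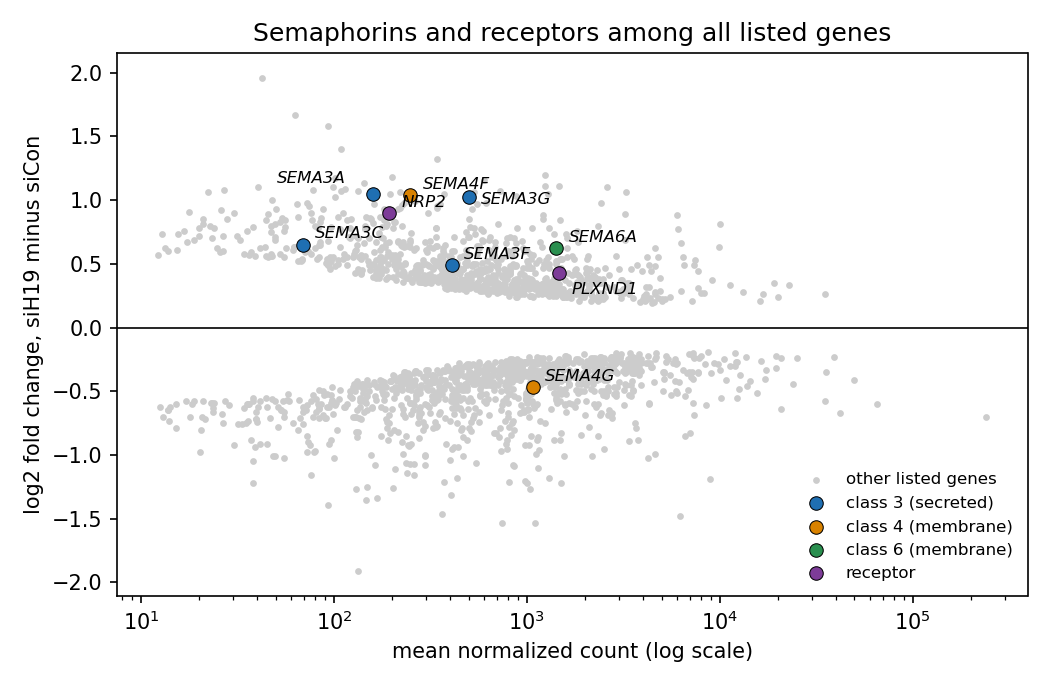
Log2 fold change (siH19 minus siCon) against mean normalised count on a log scale for all 1998 listed genes (grey), with class 3 (blue), class 4 (orange) and class 6 (green) semaphorins and receptors (purple) named. The gap around 0 widens toward low counts, SEMA3A, SEMA4F and SEMA3G lie near 1, and SEMA4G is the only named gene under 0.

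Levels can be set against each other only per length, here the normalised count per kilobase of annotated exon (GENCODE release 29). On that scale SEMA4G was the most abundant listed semaphorin in siCon at 283, followed by SEMA6A at 122, SEMA3F at 82.8, SEMA3G at 67.5, SEMA4F at 26.7, SEMA3A at 12.4 and SEMA3C at 10.2. In siH19 the count per kilobase was 205 for SEMA4G, 187 for SEMA6A, 137 for SEMA3G, 116 for SEMA3F, 54.9 for SEMA4F, 25.7 for SEMA3A and 15.9 for SEMA3C. SEMA4G therefore stood 2.32 times above SEMA6A in siCon and 1.10 times above it in siH19, and SEMA3G passed SEMA3F, from 0.815 to 1.18 times its level. With the longest annotated transcript as length, SEMA4G was at 1.87 times the level of SEMA6A in siCon and 0.877 times in siH19, so which of them was higher in siH19 depends on the length used. SEMA3G was then at 0.754 times SEMA3F in siCon and 1.09 times in siH19. No spread over libraries is known for these levels, so whether neighbours in the order differ was not tested.

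Summed over the 7 genes, the count per kilobase was 605 in siCon and 742 in siH19. SEMA4G made up 46.8% of that sum in siCon and 27.6% in siH19, while the class 3 genes together went from 28.6% to 39.7%. The 3 membrane genes summed to 432 in siCon and 447 in siH19, their rises and the fall nearly cancelling. These sums and shares cover only genes called in this contrast, so they do not describe the classes as a whole. No other length was tried for them.

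**Figure D3:**
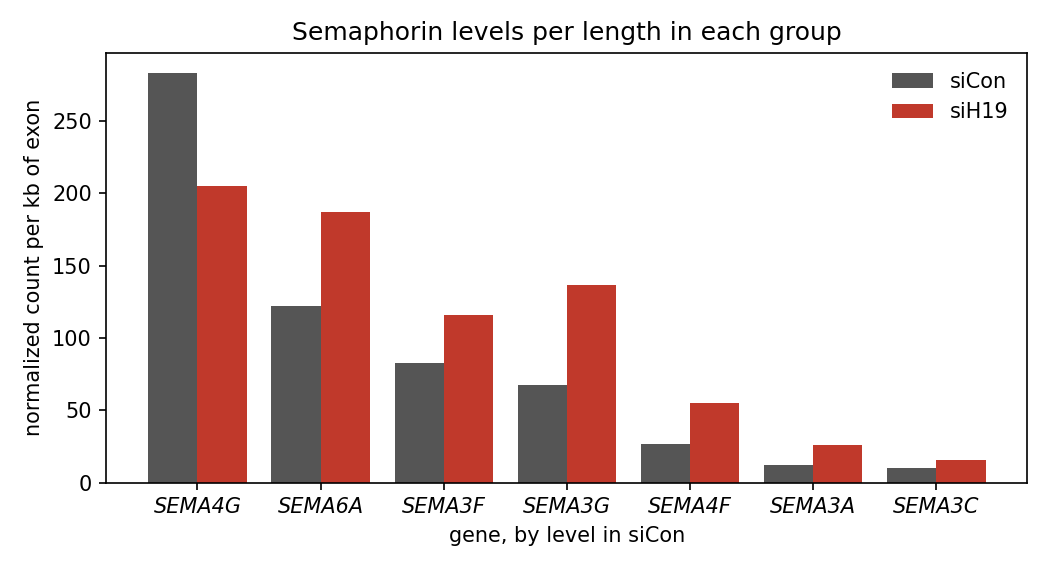
Normalised count per kilobase of annotated exon for the 7 listed semaphorin genes in siCon (grey bars) and siH19 (red bars), ordered by siCon level; there are no error bars because the table gives 1 value per group. On this length SEMA4G falls from 283 to 205 and every other bar is taller in siH19.

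The family has 20 human genes, and 13 of them have no value here. By class, the table held 4 of 7 genes of class 3, 2 of 6 of class 4, 0 of 2 of class 5, 1 of 4 of class 6 and 0 of 1 of class 7. Of all protein-coding genes with an annotated 3' UTR, 1881 of 19113 were listed. That share belongs beside these counts and those of the gene lists below, and no difference from it was tested. The genes not analysed here are SEMA3B, SEMA3D, SEMA3E, SEMA4A, SEMA4B, SEMA4C, SEMA4D, SEMA5A, SEMA5B, SEMA6B, SEMA6C, SEMA6D and SEMA7A, and no older symbol of theirs was listed. From a table of called genes, a gene that was expressed but did not pass the authors' test and a gene too low to measure cannot be told apart.

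Of 11 plexin and neuropilin genes, 2 were listed and both rose. NRP2, the neuropilin bound by SEMA3F and SEMA3G and also a co-receptor for VEGF-C, had a count of 134 in siCon and 251 in siH19, with 0.90 ± 0.16 (adjusted p = 1e-06) in the authors' deposited table. PLXND1, a plexin prominent in vessel development that binds SEMA3E directly and takes part in SEMA3C signalling, went from 1261 to 1687, with 0.43 ± 0.11 (adjusted p = 0.00210) in the authors' deposited table. NRP2 and its ligands SEMA3F and SEMA3G, each listed only because it was called in this contrast, were thus all higher in the siH19 group. NRP1, the class A and B plexins and PLXNC1 were not analysed here.

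Co-receptors and signalling partners of plexins were mostly not among the listed genes, and all that were listed rose except the protease ADAM10. From lists of 61 genes for co-receptors, effectors, cytoskeletal targets and proteases, 11 were listed, 10 higher and 1 lower. Their median log2 fold change was 0.53, beside 44.7% higher, 55.3% lower and a median of -0.27 over all listed genes. The lists were chosen with earlier results of these data known, and their genes appear only if called in this same contrast. These counts are therefore descriptions, and movement of the pathway as a whole was not tested. At an adjusted p under 0.01, 8 were higher and 1 lower, without MET and PCSK7. Of 12 co-receptor genes 3 were listed. L1CAM, a cell adhesion molecule that joins the SEMA3A receptor complex, rose from 236 to 452, by 0.95 ± 0.11 in the authors' deposited table. The receptor tyrosine kinases ERBB2 and MET, which can pair with class B plexins, changed by 0.38 ± 0.10 and 0.23 ± 0.07 in the authors' deposited table, with adjusted p-values of 0.00210 and 0.0129.

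All 4 listed effectors, out of 26, were higher. MICAL2, of the MICAL family of actin-oxidising enzymes, went from 164 to 286, by 0.80 ± 0.13 in the authors' deposited table. MRAS, a Ras-type GTPase that plexins can switch off, changed by 0.57 ± 0.14 and SH3BP1, a Rac-inactivating protein that binds PLXND1, by 0.53 ± 0.15 in the authors' deposited table. FYN, a kinase downstream of SEMA3A, rose from 1024 to 1448, by 0.50 ± 0.09 in the authors' deposited table. None of the 16 cytoskeletal targets, such as CRMP1, DPYSL2, LIMK1 and CFL1, was listed, and their levels were not analysed here.

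Proteases that process semaphorins were divided. FURIN, which cleaves class 3 semaphorins and so sets their activity, went from 765 to 1160, by 0.60 ± 0.13 in the authors' deposited table. MMP14, a membrane metalloprotease that can release SEMA4D, and PCSK7, a relative of FURIN, changed by 0.64 ± 0.14 and 0.36 ± 0.13 in the authors' deposited table. ADAM10, a membrane sheddase, was the 1 lower gene of these lists, at 2998 in siCon and 2241 in siH19, -0.41 ± 0.12 in the authors' deposited table. Of 43 genes of other guidance families 3 were listed, all higher: ROBO1, a Slit receptor (0.66 ± 0.08), EPHB4, an ephrin receptor (0.35 ± 0.09), and NEO1, a netrin and RGM receptor (0.34 ± 0.11) in the authors' deposited table.

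**Figure D4:**
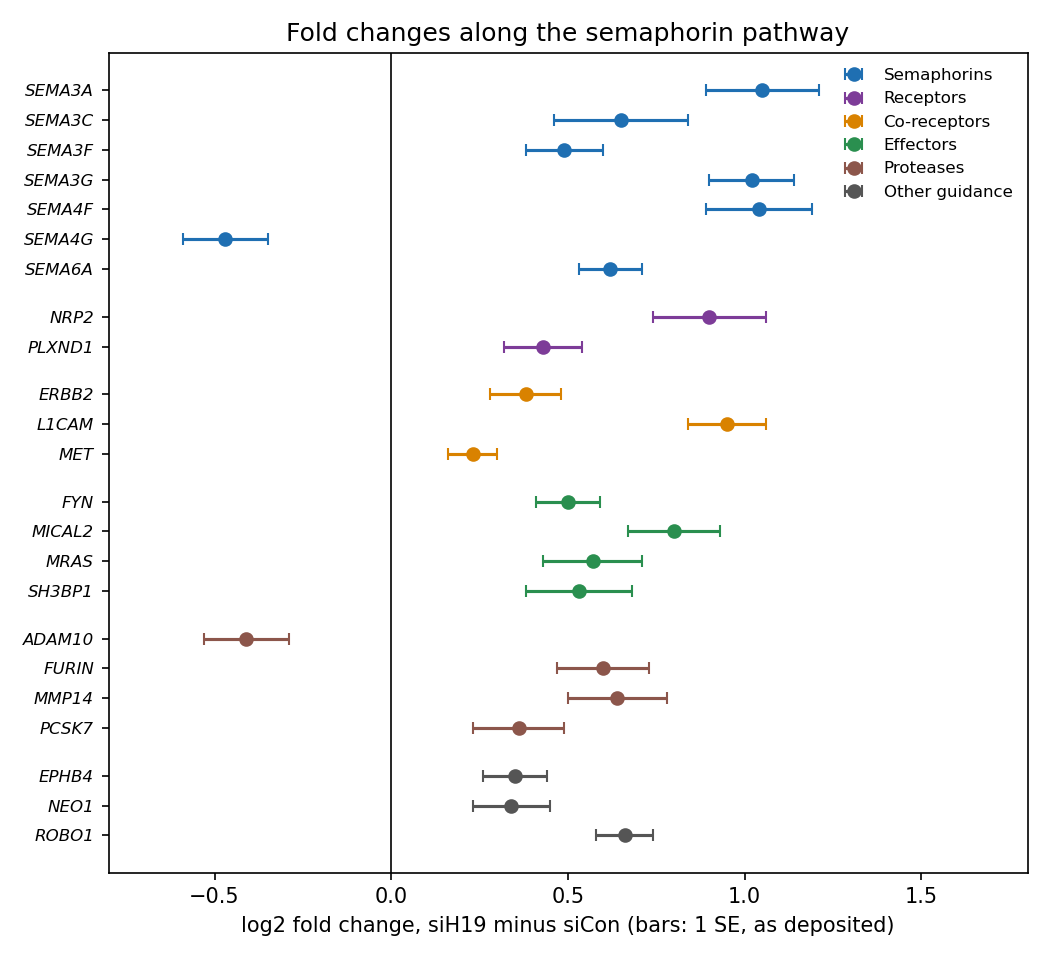
Log2 fold change (siH19 minus siCon) with bars of 1 SE, both as deposited, for semaphorins, receptors, co-receptors, effectors, proteases and other guidance genes that the table lists. Only SEMA4G and ADAM10 lie left of 0, and L1CAM (0.95), NRP2 (0.90) and MICAL2 (0.80) lie farthest right outside the semaphorins.

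In the same table hepatocyte markers fell, 8 of 8 listed out of 10, with ALB at a mean count of 42275, beside 55.3% lower over all listed genes. Of 32 markers of endothelium, stellate cells, blood, nerve and bile duct 7 were listed, 3 higher and 4 lower. That split is close to the 44.7% higher and 55.3% lower over all listed genes. The 3 higher were TUBB3 of nerve (0.69 ± 0.15) and the bile duct genes CD24 (1.20 ± 0.09) and SPP1 (0.53 ± 0.09) in the authors' deposited table. The 4 lower were CD68 (-1.21 ± 0.11) and LYZ (-0.64 ± 0.08) of blood, LYVE1 of endothelium (-0.98 ± 0.20) and ACTA2 of stellate cells (-0.83 ± 0.11), again in the deposited table of the authors. Their part in the semaphorin changes was not tested. All libraries were of the HepG2 line, so these marker names do not mean that other cell types were present. In bulk RNA fewer cells expressing a gene and less of its RNA per cell cannot be told apart.

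Some members share their locus with other transcripts, which matters because the use of strand in counting was not given in the sources used here. In GENCODE release 29 SEMA4G overlaps the protein-coding gene MRPL43 on the opposite strand, SEMA3F overlaps SEMA3F-AS1, and SEMA6A overlaps SEMA6A-AS1 and SEMA6A-AS2, so reads could be shared if strand was ignored. None of these partners was itself listed. SEMA3A, SEMA3C, SEMA3G and SEMA4F overlap no other annotated gene.

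Short sequences picked in earlier work on this same table, for their relation to the direction of change, were looked for in the longest annotated 3' UTR of each of the 9 genes. GCAGTAC was found in SEMA4F and in no other of the 9, and CATCAAA in SEMA3C and in no other. Among 19113 genes 4.49% held the first and 11.7% the second, and among 1881 listed genes 9.57% and 17.7%. Split by direction, GCAGTAC was held by 17.6% of the listed genes that were higher and 2.92% of those that were lower, and CATCAAA by 11.0% and 23.3%, which describes the table the sequences were picked from and was not tested. SEMA3C, with CATCAAA, rose. Both 30-base stretches are shown with the match in capitals, from position 799 of 3644 bases in SEMA4F and 896 of 2356 in SEMA3C for the first matched base.

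SEMA4F: tgggaagggcaGCAGTACacatgaccccat
SEMA3C: aggtgtgaaatCATCAAAaagaaaaatcaa

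SEMA3A, SEMA3G and SEMA4G held neither sequence. Both sequences were picked from these same data by direction of change. Matches or their absence in members of the same table therefore cannot decide whether either is related to a change, and this was not tested.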

How the data were processed

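Total RNA from 6 HepG2 samples was depleted of ribosomal RNA and sequenced as stranded paired reads, per the labels' protocols. The submitters' processing notes name build hg19 and, with neither role nor order, DESeq2 1.0.0, STAR 2.5.0a and Cufflinks 2.2.1. Neither the gene annotation nor any shrinkage of fold changes is stated in those notes or the labels. The authors deposited 1 table of called genes, with group values, fold changes and SEs on a log2 scale. Its mean count is a normalized signal deposited by the authors, and the q values that the authors deposited reached at most 0.0498. No values per library were used, library totals are unknown, and nothing says whether libraries came from separate cultures, so SEs may be technical. Columns of samples outside the series numbered 0.

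The foreseen edgeR fit needed counts per library and was not run, so no gene test was added. Deposited fold changes equalled the difference of group values within 0.01. Members, lists and the rule for named genes (all members and receptors, and up to 4 largest changes per list) were chosen with earlier results of these data known. With 2 group values per gene, no genes of like pattern were sought. Protein features foreseen in the design were not computed. Levels per kilobase used the union of exons of basic transcripts in GENCODE 29, matched by symbol, and promoters came from RefSeq. The counting steps (Python 3.11.15, pandas 2.3.3) were tested on simulated data. Alternatives were a stricter adjusted p, a mean count minimum of 100, a 1.5-fold minimum, other name rules, an overlap filter, an SE filter that took normalized counts as reads, a pseudocount of 10 and another length.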

Additional observations from a re-analysis of the deposited data

How the results depend on the processing

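No paired analysis was possible because the table gives 1 combined value per group and no value per library; for the same reason no replicate could be left out and neither edgeR nor DESeq2 was run. At an adjusted p under 0.01 the semaphorins stayed at 6 higher and 1 lower, and a mean count of at least 100 removed SEMA3C alone. A change of at least 1.5-fold left 5 semaphorins higher and 0 lower, so SEMA4G dropped out of the semaphorins and of the membrane classes (0 lower), as did SEMA3F from the higher ones. The same 1.5-fold minimum left 1 of 2 receptors (NRP2), and 4 higher and 0 lower of the pathway genes (FURIN, L1CAM, MICAL2 and MMP14). These losses follow from the minimum, since the genes lost changed by less. All 18 recomputed fold changes, from the group values or with a pseudocount of 10, kept their direction. They lay within 1 SE of the deposited value, the largest move being 0.09. The difference of group values repeats the deposited value, and a pseudocount cannot reverse a direction. The kept direction is therefore no check of the processing. With the longest transcript as length, chosen after seeing the data, the level of NRP2 was 1.54 times as high and those of the other 8 genes moved by less than 1.5 times, while SEMA4G and SEMA6A changed places in siH19 (a ratio of 0.877 in place of 1.10). With a pseudocount of 10 the log2 fold change of SEMA3A was 0.98 and those of SEMA3G and SEMA4F both 1.00, so the order of these 3 is not fixed. Depth per library is unknown, so no counting interval was given.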

Other observations

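Other genes for cell guidance and matrix cues, chosen after their values were seen, were also listed. ALCAM, an adhesion molecule on growing axons, went from a normalised count of 838 to 1734, with 1.05 ± 0.09 in the authors' deposited table. FLRT2, a membrane protein that repels UNC5-bearing cells, rose by 0.81 ± 0.20 from a low count of 36.0 in the authors' deposited table. CHST3, which sulfates chondroitin, SDC3, a heparan sulfate proteoglycan, and PTPRS, a phosphatase receptor for both kinds of chain, changed by 0.50 ± 0.10, 0.44 ± 0.16 and 0.35 ± 0.08 in the authors' deposited table. The growth factor midkine, MDK, was lower, at -0.28 ± 0.09 in the authors' deposited table. Of the 16 genes looked up 6 were listed, 5 of them higher, beside 44.7% higher over all listed genes. Because the choice followed the values, this count describes the choice and was not tested.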
